A study of Homo sapiens with 18 samples.

Results

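The 10 genes described here encode protein disulfide isomerases and sulfhydryl oxidases of the secretory pathway. They are P4HB, PDIA3, PDIA4, PDIA5, PDIA6, TXNDC5, TXNDC11, TMX1, QSOX1 and QSOX2, taken by symbol from a gene count table of 25435 rows, and each of the 10 had a row. RNA-Seq was performed on HEK293doxERN2 cells, a human embryonic kidney line that carries a FLAG-tagged ERN2 transgene switched on by doxycycline. ERN2, also called IRE1β, is the epithelial form of the ER stress sensor IRE1, which splices the mRNA of the transcription factor XBP1. Doxycycline was given for 24 hours at 0 ng/mL (named No ERN2), 10 ng/mL (Low ERN2) or 100 ng/mL (High ERN2). At each dose they received either DMSO vehicle (control) or 200 nM thapsigargin (stress) for 3 hours, with 3 libraries in each of the 6 groups and 18 in all. Thapsigargin blocks the calcium pump of the ER and so provokes ER stress. All groups, controls at 0 ng/mL included, carry the transgene, so doxycycline itself and ERN2 cannot be told apart. The labels do not say whether the line is 1 clone, nor whether the 3 libraries came from separate cultures, so p-values measure the spread between libraries, which may be technical.

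Protein disulfide isomerases are thioredoxin-fold enzymes that form, break and rearrange disulfide bonds in proteins folding in the ER. Some pass electrons to the oxidase ERO1, whereas the QSOX enzymes join a thioredoxin domain to their own oxidase domain. QSOX enzymes make disulfides directly with oxygen, largely in the Golgi apparatus and outside the cell. Transcription of several isomerases is known to respond to ATF6 and XBP1, which bind the ER stress response element (ERSE) and the unfolded protein response element (UPRE) in promoters. Goblet cells, in which ERN2 normally acts, depend on such enzymes because mucins are rich in disulfide bonds.

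Promoter sequences from RefSeq (GRCh38.p14) were present for 8 of the 10 genes, in 11 entries (2 each for PDIA4, PDIA6 and TXNDC5) that run from 250 bases before to 50 bases after a transcription start. PDIA3 and QSOX2 had no entry. The 150 bases before the start are printed for the 4 genes that rose with thapsigargin in uninduced cells (PDIA4, TXNDC11, PDIA6 and PDIA5), for P4HB, whose response to thapsigargin had opposite signs at 0 and 100 ng/mL, and for QSOX1, the gene that fell at 100 ng/mL doxycycline. PDIA4 and PDIA6 each have a second entry that is not printed, and the entries shown were chosen with the motif matches known. They lie at chr7:149028491-149028640 (PDIA4, minus strand), chr16:11742858-11743007 (TXNDC11, minus), chr2:10812786-10812935 (PDIA6, minus), chr3:123066875-123067024 (PDIA5, plus), chr17:81860536-81860685 (P4HB, minus) and chr1:180154719-180154868 (QSOX1, plus). Each is written 5′ to 3′ on the strand of its gene, and capitals mark CCAAT and CCACG on either strand, the pair of elements that make up the ERSE.
PDIA4: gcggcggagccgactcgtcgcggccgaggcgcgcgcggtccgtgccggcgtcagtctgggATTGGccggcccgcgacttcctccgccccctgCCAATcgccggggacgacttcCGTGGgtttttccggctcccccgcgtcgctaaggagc
TXNDC11: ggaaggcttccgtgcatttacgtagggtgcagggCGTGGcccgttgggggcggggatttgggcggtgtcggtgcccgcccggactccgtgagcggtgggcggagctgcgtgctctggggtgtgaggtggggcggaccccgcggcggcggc
PDIA6: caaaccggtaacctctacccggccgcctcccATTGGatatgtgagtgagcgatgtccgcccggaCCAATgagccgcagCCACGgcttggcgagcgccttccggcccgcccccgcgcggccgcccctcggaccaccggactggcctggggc
PDIA5: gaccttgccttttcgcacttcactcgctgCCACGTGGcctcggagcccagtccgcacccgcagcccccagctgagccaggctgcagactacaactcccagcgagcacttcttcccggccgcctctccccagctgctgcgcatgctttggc
P4HB: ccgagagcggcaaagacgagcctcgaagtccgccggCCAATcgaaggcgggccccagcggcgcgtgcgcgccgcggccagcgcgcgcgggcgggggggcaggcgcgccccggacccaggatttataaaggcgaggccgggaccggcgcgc
QSOX1: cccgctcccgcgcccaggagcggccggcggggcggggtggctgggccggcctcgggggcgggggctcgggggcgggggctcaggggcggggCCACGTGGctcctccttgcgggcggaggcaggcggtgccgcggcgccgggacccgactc
Searched on both strands of all 35116 entries, the ERSE (CCAAT, any 9 bases, CCACG) was present in 0.0769% of entries. Among the 10 genes it was found in 1 entry, that of PDIA6 printed here, where it began 86 bases before the start. The other PDIA6 entry, whose 150 bases lie at chr2:10832486-10832635, held neither CCAAT nor CCACG. PDIA4 carried CCAAT 58 bases before the start and CCACG on the other strand 37 bases before it, not in the ERSE arrangement. The UPRE core TGACGTGG, present in 0.729% of entries, was found in 1 TXNDC5 entry 92 bases before the start and in TXNDC11 from base 6 after the start. Neither the ERSE-II (ATTGG, any 1 base, CCACG, in 0.0541% of entries) nor the ATF4 composite element TGATGCAA (in 0.866%) was found in any of the 11 entries. QSOX1 and PDIA5 both carried the palindrome CCACGTGG, which 0.928% of entries hold and which was looked up after these sequences had been seen. The elements of the ERSE are common on their own, since CCAAT was present in 34.6% and CCACG in 38.1% of entries. A match describes letters in this window and shows no binding.

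Library totals ran from 14876416 to 24652240 counts, and levels below are CPM, counts scaled to the size of the library and by TMM over all 18 libraries. ERN2 had a mean of 7.79 CPM in No ERN2, control, 35.2 in Low ERN2, control and 270 in High ERN2, control. HSPA5, the ER chaperone BiP, rose from 503 ± 34.0 to 3638 ± 983 CPM with thapsigargin in uninduced cells (mean ± SD, n = 3). The extraction text of the labels names colon crypt epithelial cells, but the 12 colon crypt markers summed to at most 10.0 CPM in any library, of which CDX2 made up 3.36 to 8.83, with TFF3 and PHGR1 at 0 in all 18, while all 8 HEK293 markers were detected in every library. In a principal component analysis of all genes, replicate 1 of High ERN2, stress lay at 25.9 on the first component against 56.1 and 55.1 for the other two libraries of its group. Within its group, ERN2 was highest in that library, at 272 CPM against a group minimum of 175. Without it, ERN2 had a log2 fold change of -0.62 with thapsigargin at 100 ng/mL (edgeR, adjusted p = 0.00348). In the fit without that library, the response of ERN2 at 100 ng/mL differed from that at 0 ng/mL by -1.22 (adjusted p = 0.00248). The High ERN2, stress group was thus sensitive to this library. Results that use this group are therefore also given without that library. Other groups also spread on the first component. Replicate 2 of High ERN2, control lay at -6.14 against 16.0 and 7.57. Replicate 1 of Low ERN2, control lay at -16.4 against -34.1 and -27.2. Without that Low ERN2 library, the count over all genes for 10 ng/mL with vehicle rose from 28 to 2743. In bulk RNA, fewer cells expressing a gene and less RNA per cell cannot be told apart.

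P4HB, PDIA3, PDIA4 and PDIA6 were the abundant genes of the set. Per kilobase of exon in GENCODE release 29, uninduced vehicle-treated cells held 118 CPM of P4HB, 84.0 of PDIA4, 82.9 of PDIA3 and 65.6 of PDIA6. The remaining 6 followed at 18.6 (QSOX2), 13.8 (TMX1), 9.48 (TXNDC11), 5.71 (QSOX1), 2.70 (PDIA5) and 0.385 (TXNDC5) CPM per kilobase. These are levels per exonic length, and the annotation the authors counted with is not given in the sources used here. TXNDC5 had 11 to 137 reads per library, so its values carry large errors. Reads that also fit an annotated read-through gene may be missing from TXNDC5, so its rank is uncertain. Over the 18 libraries, PDIA4 and QSOX1 spanned the widest range among the well-counted genes, 5.88-fold and 5.89-fold from the lowest to the highest library, while TMX1 spanned 1.68-fold.

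**Figure D1:**
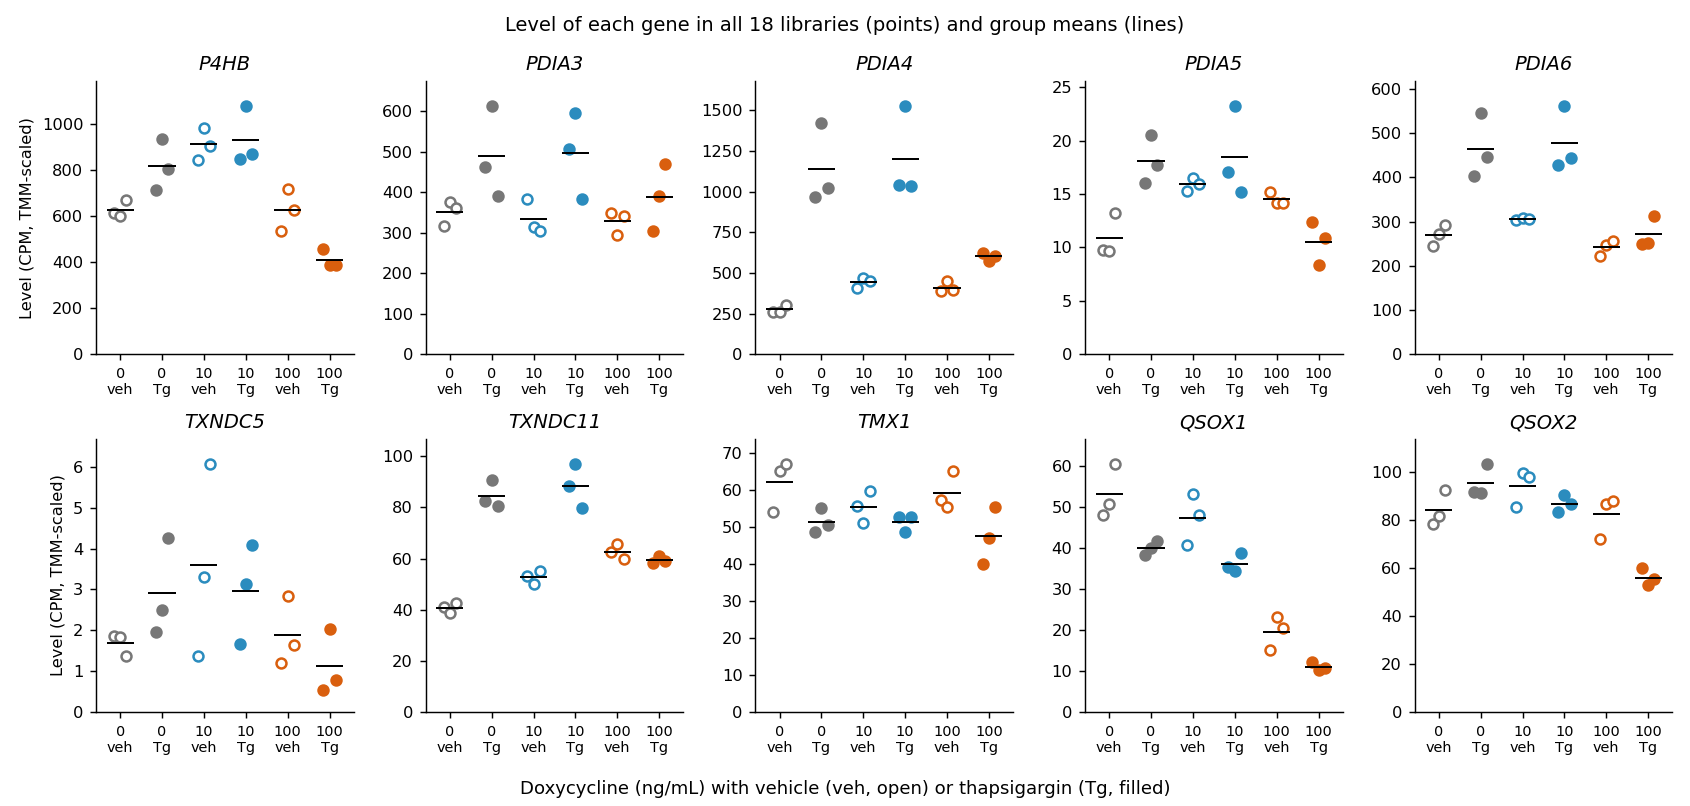
Level of each of the 10 genes in CPM (vertical axes, from 0) in each of the 18 libraries (points), by doxycycline dose and treatment (horizontal axes), with lines at group means. PDIA4 stands near 275 CPM in uninduced vehicle-treated cells and at 968 CPM or more in all 6 thapsigargin libraries at 0 and 10 ng/mL, and QSOX1 is at or below 23.1 CPM in all 6 libraries at 100 ng/mL.

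The response to ER stress without induced ERN2 was examined first. In uninduced cells, thapsigargin raised PDIA4, TXNDC11, PDIA6 and PDIA5. PDIA4, a large isomerase with several thioredoxin domains, was at 261, 260 and 305 CPM in the vehicle libraries and at 968, 1425 and 1024 CPM in the thapsigargin libraries. The groups did not overlap, and the log2 fold change was 2.06 (standard error 0.15; edgeR quasi-likelihood test, adjusted p = 1.23e-06), a 4.17-fold increase. TXNDC11, a membrane-bound protein of the family known to take part in ER-associated degradation, was at 40.9, 38.6 and 42.5 CPM with vehicle and at 82.5, 90.9 and 80.5 CPM with thapsigargin. It rose by 1.07 on the log2 scale (standard error 0.11; adjusted p = 3.51e-05).

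PDIA6, an isomerase that also binds BiP, was at 244, 271 and 292 CPM with vehicle and 404, 546 and 446 CPM with thapsigargin. The log2 fold change of PDIA6 was 0.80 (standard error 0.12; adjusted p = 0.000718). PDIA5 was at 9.75, 9.66 and 13.3 CPM with vehicle and 16.0, 20.5 and 17.8 CPM with thapsigargin, a log2 fold change of 0.74 (standard error 0.16; adjusted p = 0.00619). It passed without replicate 3 of either group, in 2 of the 6 leave-one-out fits, and the largest adjusted p over the alternatives was 0.0354. PDIA4, TXNDC11 and PDIA6 passed in all 12 alternatives.

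In all, 4 of the 10 genes passed an adjusted p of 0.01 in the direction of higher expression, against 6.45% of the 14397 genes tested, and 0 of 10 passed as lower, against 4.74%. The median log2 fold change of the 10 was 0.62, against -0.01 over all genes tested. In 7 of the 10 every thapsigargin library lay above every vehicle library, an arrangement seen in 20% of all genes. P4HB, the archetypal isomerase and also the β subunit of prolyl 4-hydroxylase, had a log2 fold change of 0.39 (standard error 0.11; adjusted p = 0.0268). PDIA3, the isomerase that serves glycoproteins through calnexin and calreticulin, had 0.49 (standard error 0.15; adjusted p = 0.0297). Both missed the threshold, although neither overlapped between the groups. QSOX1 had a log2 fold change of -0.40 (standard error 0.12; adjusted p = 0.031), with all 3 thapsigargin libraries below the vehicle libraries. TXNDC5 (0.78), QSOX2 (0.19) and TMX1 (-0.26) did not pass either. With replicate number added to the fit as a block, 7 of the 10 passed, and 3571 genes in all. P4HB and PDIA3 then passed as higher and QSOX1 as lower (adjusted p = 0.00359).

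The same treatment was then compared at each dose of doxycycline. At 10 ng/mL, PDIA4 and TXNDC11 passed in the direction of higher expression, against 1.16% of 14607 genes, and 0 passed as lower, against 0.294%. PDIA4 was at 410, 468 and 449 CPM with vehicle and 1041, 1528 and 1032 CPM with thapsigargin, a log2 fold change of 1.43 (standard error 0.16; adjusted p = 0.00107). TXNDC11 was at 53.3, 50.2 and 55.0 CPM with vehicle and 88.2, 97.1 and 79.7 CPM with thapsigargin, a log2 fold change of 0.74 (standard error 0.12; adjusted p = 0.00801). TXNDC11 passed in 1 of the 6 leave-one-out fits, that without replicate 3 of Low ERN2, stress, and its adjusted p reached 0.0778 over the alternatives. PDIA4 passed in 5 of 6. Without replicate 2 of Low ERN2, control, 0 of the 10 passed, and 28 genes passed in all, against 212 with every library. PDIA6 had a log2 fold change of 0.64 (standard error 0.13; adjusted p = 0.0178). Among the rest QSOX1 had -0.39, TXNDC5 -0.30, QSOX2 -0.12, TMX1 -0.12, P4HB 0.03, PDIA5 0.21 and PDIA3 0.57, none of which passed. With the replicate block 5 of the 10 passed, and 3620 genes in all. PDIA6 (adjusted p = 1.24e-07) and PDIA3 (adjusted p = 5.68e-06) then passed as higher and QSOX1 as lower (adjusted p = 0.00211).

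At 100 ng/mL, thapsigargin left 0 of the 10 genes past the threshold by edgeR, against 0.18% of 14427 genes higher and 0.0208% lower, although 5 had an unadjusted p under 0.05, as did 3892 of all genes tested. DESeq2 called 3 of the 10 and 729 genes in all, with P4HB and QSOX1 lower and PDIA4 higher. PDIA4 was at 387, 448 and 395 CPM with vehicle and 625, 573 and 605 CPM with thapsigargin, with no overlap and a log2 fold change of 0.57 (standard error 0.11; adjusted p = 0.0301). P4HB was at 537, 720 and 628 CPM with vehicle and 456, 390 and 389 CPM with thapsigargin, a log2 fold change of -0.59 (standard error 0.14; adjusted p = 0.0482). Every thapsigargin library was thus below every vehicle library for P4HB, the reverse of the order in uninduced cells. The same held for PDIA5, at 15.2, 14.2 and 14.1 CPM with vehicle and 12.4, 8.31 and 10.8 CPM with thapsigargin (log2 fold change -0.44; adjusted p = 0.165). QSOX1 had a log2 fold change of -0.80, QSOX2 of -0.53, TMX1 of -0.30, TXNDC11 of -0.05, PDIA6 of 0.19, PDIA3 of 0.26 and TXNDC5 of -0.81, none of which passed. In all, 5 of the 10 lay wholly below their vehicle libraries, against 15.1% of all genes. Without replicate 1 of High ERN2, stress, 4 of the 10 passed, and the count over all genes rose from 29 to 2568 (9.78% higher and 7.84% lower). Those 4 were PDIA4 at 0.52 (adjusted p = 0.00531), P4HB at -0.69 (adjusted p = 0.00199), QSOX1 at -0.90 (adjusted p = 0.00348) and QSOX2 at -0.61 (adjusted p = 0.0065).

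**Figure D2:**
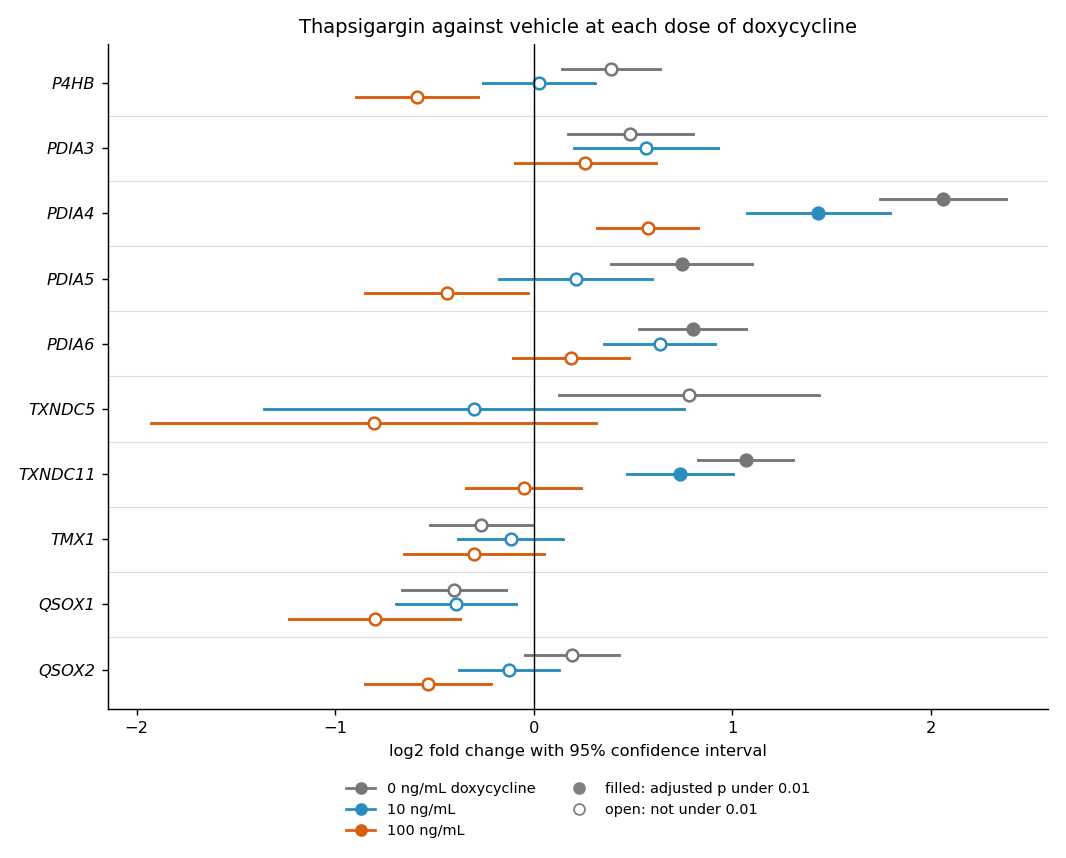
Log2 fold change between thapsigargin and vehicle for each gene (vertical axis) at 0, 10 and 100 ng/mL doxycycline (colors), with 95% confidence intervals (bars). PDIA4 goes from 2.06 to 1.43 to 0.57, and P4HB from 0.39 to 0.03 to -0.59.

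The difference between these responses was tested as an interaction over 12 libraries. At 100 against 0 ng/mL, the response of PDIA4 was smaller by a log2 difference of -1.40 (standard error 0.19, 95% interval -1.81 to -0.99; adjusted p = 0.00897). It was the 1 gene of the 10 that passed, against 0.0339% of 14768 genes with a lower and 0.00677% with a higher response. HSPA5 also passed, at -1.58 (adjusted p = 0.00897). TXNDC11 had -1.04 (standard error 0.15; adjusted p = 0.0101), P4HB -0.89 (standard error 0.18; adjusted p = 0.0313) and PDIA5 -1.10 (standard error 0.24; adjusted p = 0.0481), none of which passed. The 10 genes had a median difference of -0.77, against 0.04 over all genes tested. Of the 10, 9 were below 0, while 53.3% of all genes tested were above 0. The call for PDIA4 was made in 4 of 12 leave-one-out fits, those without a thapsigargin library at 0 ng/mL or replicate 1 of High ERN2, stress, and was lost in the other 8 and with the replicate block, with adjusted p up to 0.045. In each of those 8 fits 2 genes passed in all, and 3 with the block, against 6 in the main fit. PDIA6 (-0.53), QSOX1 (-0.32), PDIA3 (-0.15), TMX1 (0.05) and TXNDC5 (-1.51) also missed the threshold. Without replicate 1 of High ERN2, stress, the count over all genes rose from 6 to 1286, with 2.82% of 14946 genes lower and 5.79% higher. Of the 10 genes 5 then passed, PDIA4 at -1.48 (adjusted p = 0.00094), TXNDC11 at -1.07 (adjusted p = 0.00138), P4HB at -1.03 (adjusted p = 0.00248), PDIA5 at -1.28 (adjusted p = 0.0033) and QSOX2 at -0.75 (adjusted p = 0.00702). At 10 against 0 ng/mL, 0 of the 10 passed, as did 0% of all 14857 genes by edgeR, of which 664 had an unadjusted p under 0.05. PDIA4 had a log2 difference of -0.62 there, with a 95% interval of -1.11 to -0.12 (adjusted p = 0.779), and the other 9 genes lay between -1.08 (TXNDC5) and 0.16 (TMX1).

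Induction of ERN2 without added stress was examined next. At 10 ng/mL doxycycline 0 of the 10 passed, against 0.138% of 14497 genes higher and 0.0552% lower, while 5 had an unadjusted p under 0.05, as did 4421 of all genes tested. DESeq2 called PDIA4 and P4HB higher among 382 genes in all, 107 of them higher and 275 lower. PDIA4 lay at 410 to 468 CPM, above the 260 to 305 CPM of uninduced cells, with a log2 fold change of 0.68 (standard error 0.10; adjusted p = 0.0105). P4HB was at 612, 600 and 670 CPM in uninduced cells and 843, 986 and 908 CPM at 10 ng/mL, a log2 fold change of 0.54 (standard error 0.10; adjusted p = 0.0248). PDIA5, PDIA6 and TXNDC11 were also above every uninduced library, making 5 of 10, against 14.4% of all genes. Their log2 fold changes were 0.55, 0.18 and 0.37, and those of TXNDC5 (1.08), QSOX2 (0.16), PDIA3 (-0.08), TMX1 (-0.17) and QSOX1 (-0.17) did not pass either. Without replicate 1 of Low ERN2, control, the test called PDIA4, P4HB and TXNDC5, and 2743 genes in all against 28 with it. In the other 5 leave-one-out fits it called 0 of the 10, and 0 to 19 genes in all.

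At 100 ng/mL, TXNDC11 and PDIA4 were higher, against 0.838% of 14444 genes, and QSOX1 was lower, against 7.49%. TXNDC11 reached 62.5, 65.7 and 59.6 CPM, from 40.9, 38.6 and 42.5 CPM in uninduced cells (log2 fold change 0.58, standard error 0.11; adjusted p = 0.00326). PDIA4 reached 387, 448 and 395 CPM (log2 fold change 0.53, standard error 0.11; adjusted p = 0.00504). TXNDC11 passed in 2 and PDIA4 in 3 of the 6 leave-one-out fits. Both calls were lost without replicate 1 or 2 of No ERN2, control or replicate 3 of High ERN2, control, and that of TXNDC11 also without replicate 3 of No ERN2, control. Their adjusted p over the alternatives reached 0.0358 and 0.0354. P4HB had a log2 fold change of -0.04 against uninduced cells at this dose (95% interval -0.30 to 0.22) and did not pass. PDIA5 (0.37), TXNDC5 (0.15), QSOX2 (-0.07), TMX1 (-0.11), PDIA3 (-0.14) and PDIA6 (-0.20) did not pass.

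QSOX1, the main sulfhydryl oxidase of the late secretory pathway, had the largest change of the 10 with doxycycline among those called. It was at 48.2, 50.8 and 60.6 CPM in uninduced cells, 40.8, 53.1 and 47.9 CPM at 10 ng/mL and 15.1, 23.1 and 20.6 CPM at 100 ng/mL. The uninduced and the 10 ng/mL libraries overlapped, and all 3 libraries at 100 ng/mL lay below both. With this dose QSOX1 fell by 1.48 on the log2 scale (standard error 0.17; adjusted p = 5.02e-05), to 0.36 of the uninduced level, and it passed in all 12 alternatives. Compared directly with 10 ng/mL, QSOX1 fell by 1.29 (standard error 0.17; adjusted p = 0.00306) and was the 1 gene of the 10 that passed, against 2.43% of 14549 genes lower and 0.0137% higher. That call was made in 3 of the 6 leave-one-out fits, and not without replicate 2 of Low ERN2, control, or replicate 1 or 3 of High ERN2, control. In those last 3 fits 9, 21 and 0 genes passed in all, against 356 with every library. The log2 fold change of QSOX1 lay between -1.42 and -1.14 over the 6 fits. P4HB had -0.56 in this comparison (standard error 0.12; adjusted p = 0.021), and 4 of the 10 genes lay wholly below their 10 ng/mL libraries, against 12.9% of all genes. The other 8 genes lay between -0.92 (TXNDC5) and 0.22 (TXNDC11).

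**Figure D3:**
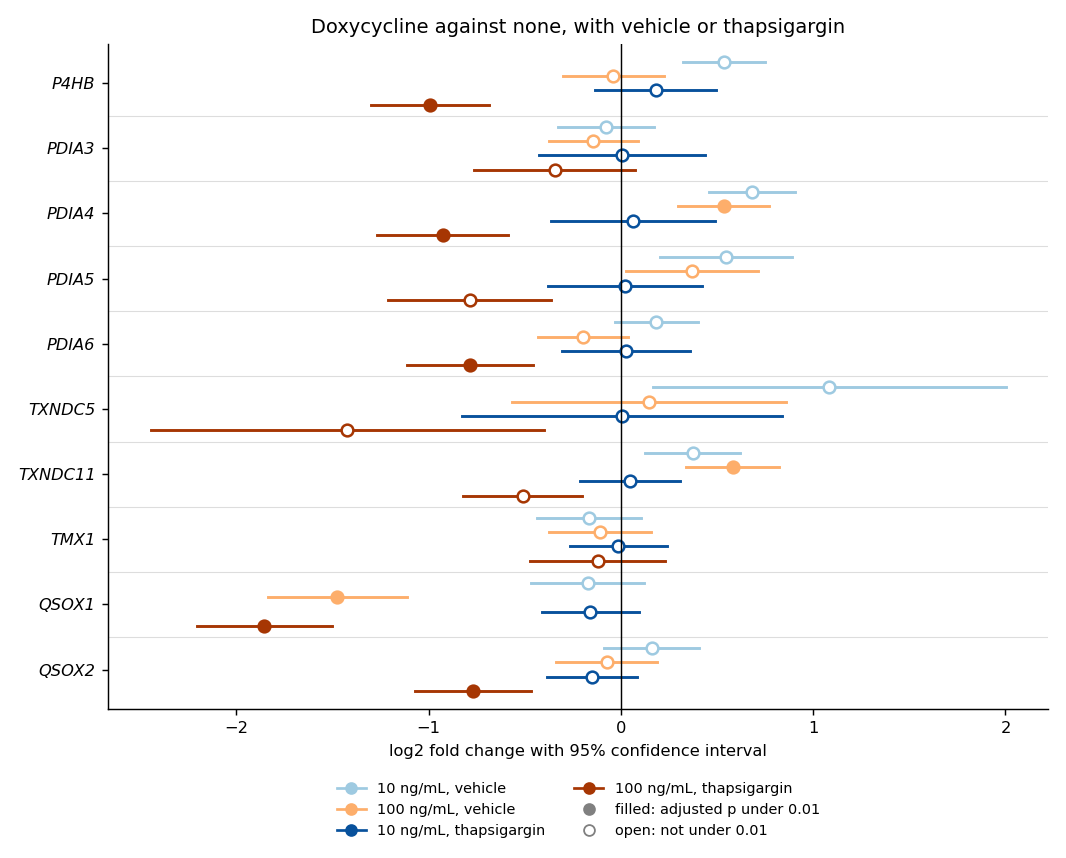
Log2 fold change against 0 ng/mL doxycycline for each gene (vertical axis), at 10 and 100 ng/mL with vehicle or thapsigargin (colors), with 95% confidence intervals (bars). At 100 ng/mL PDIA4 is at 0.53 with vehicle and -0.93 with thapsigargin, and QSOX1 is at -1.48 and -1.85.

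Doses were then compared in thapsigargin-treated cells. These comparisons share libraries with those above, so they are not independent of them. At 10 ng/mL 0 of the 10 genes passed and 0 had an unadjusted p under 0.05, and 0% of 14509 genes passed by edgeR, of which 612 had an unadjusted p under 0.05 (DESeq2 called 39 genes, 0 of them among the 10). Same-numbered libraries of these 2 groups deviated together, and with the replicate block 564 genes passed, again 0 of the 10. The log2 fold changes of the 10 lay between -0.16 (QSOX1) and 0.18 (P4HB). With 100 ng/mL 5 of the 10 fell, against 9% of 14358 genes lower, and 0 rose, against 1.53%. The median of the 10 was -0.79 on the log2 scale, against 0.04 over all genes tested. All 10 values were below 0, while 53.9% of all genes tested were above 0.

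QSOX1 went from 38.3, 40.1 and 41.7 CPM at 0 ng/mL to 12.3, 10.3 and 10.7 CPM at 100 ng/mL and fell by 1.85 (standard error 0.16; adjusted p = 1.11e-05). P4HB went from 712, 934 and 803 CPM to 456, 390 and 389 CPM and fell by 0.99 (standard error 0.14; adjusted p = 0.000346). Both passed in all 12 alternatives. PDIA4 went from 968, 1425 and 1024 CPM to 625, 573 and 605 CPM and fell by 0.93 (standard error 0.16; adjusted p = 0.00121). The direction of PDIA4 at 100 ng/mL was thus opposite with vehicle and with thapsigargin, which is the interaction given above seen from the other side. PDIA6 went from 404, 546 and 446 CPM to 250, 251 and 312 CPM and fell by 0.79 (standard error 0.15; adjusted p = 0.00277).

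QSOX2, the second sulfhydryl oxidase, was at 91.4, 91.2 and 103 CPM with thapsigargin at 0 ng/mL and 60.0, 52.7 and 55.2 CPM at 100 ng/mL, and fell by 0.77 (standard error 0.14; adjusted p = 0.00186). With vehicle, QSOX2 had a log2 fold change of -0.07 at 100 ng/mL (95% interval -0.34 to 0.19), so that its lowest group was the combination of 100 ng/mL with thapsigargin. The interaction for QSOX2, -0.64 (standard error 0.16; adjusted p = 0.0651), did not pass. PDIA5 (-0.79, adjusted p = 0.0135), TXNDC11 (-0.51, adjusted p = 0.0237) and TXNDC5 (-1.42, adjusted p = 0.0491) missed the threshold. In 7 of the 10 genes every library at 100 ng/mL lay below every uninduced library, against 20.4% of all genes. PDIA3 (-0.34) and TMX1 (-0.12) had the smallest values. Without replicate 1 of High ERN2, stress, the count over all genes rose from 1512 to 3950 (13.7% of 14527 genes lower and 13.5% higher), and 6 of the 10 passed, the 5 above and PDIA5, with QSOX1 at -1.92, P4HB at -1.06 and PDIA4 at -0.94. Without replicate 2 of that group, QSOX1 and P4HB alone passed among the 10, and 763 genes passed in all.

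TMX1, PDIA3 and TXNDC5 passed the threshold in none of the comparisons in the main edgeR fit. TMX1, a membrane-bound isomerase of the ER, was between 39.9 and 67.0 CPM in all 18 libraries, with its highest group mean, 62.1 CPM, in No ERN2, control and its lowest, 47.4 CPM, in High ERN2, stress. Neighboring groups in the order of TMX1 levels overlapped throughout. PDIA3 had group means from 328 to 495 CPM, the 2 highest being the thapsigargin groups at 10 and 0 ng/mL, and neighboring groups again overlapped. The response of PDIA3 to thapsigargin in cells given 10 ng/mL was 0.57 on the log2 scale (95% interval 0.20 to 0.93; adjusted p = 0.066). The processed pseudogene PDIA3P1 had 77 to 169 reads per library against 5530 to 13087 for PDIA3, and adding them changed no call. Over the alternatives PDIA3 passed as higher with thapsigargin in 4 of 13 at 0 ng/mL and in 2 of 13 at 10 ng/mL. TXNDC5 ranged from 0.546 to 6.08 CPM, and its log2 fold changes had standard errors of 0.30 to 0.65. The annotated read-through gene BLOC1S5-TXNDC5 shares 2658 exonic bases with TXNDC5 and was listed at 0 in all libraries, so reads that fit both may be missing from TXNDC5 and its level is uncertain.

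The order of group means differed among the genes. For PDIA4 it ran from Low ERN2, stress (1200 CPM) and No ERN2, stress (1139), which overlapped, through High ERN2, stress (601), Low ERN2, control (443) and High ERN2, control (410), of which the last 2 overlapped, to No ERN2, control (275). For TXNDC11 the order began with the same 2 groups at 88.3 and 84.6 CPM, followed by High ERN2, control (62.6) and High ERN2, stress (59.5), which overlapped, and by Low ERN2, control (52.8) and No ERN2, control (40.7). P4HB was highest in the 2 groups at 10 ng/mL, at 933 and 912 CPM, and of its neighboring groups only No ERN2, control and High ERN2, stress, the lowest at 411 CPM, did not overlap. For QSOX1 the 4 groups at 0 and 10 ng/mL overlapped their neighbors between 53.2 and 36.2 CPM, and both groups at 100 ng/mL stood apart at 19.6 and 11.1 CPM.

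Summed over the 10 genes, levels were 1668 to 1904 CPM in uninduced vehicle-treated libraries and 2826 to 3818 CPM with thapsigargin. At 10 ng/mL they were 2191 to 2350 and 3006 to 4061 CPM in the same order. At 100 ng/mL they were 1717 to 1958 CPM with vehicle and 1785 to 1966 CPM with thapsigargin, ranges that overlap. The make-up of the sum nevertheless differed at 100 ng/mL. PDIA4 supplied 21.1 to 22.9% of the reads of the 10 genes with vehicle and 30.8 to 34.4% with thapsigargin, while P4HB supplied 31.3 to 36.8% and 19.8 to 25.1%. In uninduced cells the share of PDIA4 was 14.8 to 16.0% with vehicle and 34.2 to 37.3% with thapsigargin. These shares compare reads, not molecules, since the genes differ in length.

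**Figure D4:**
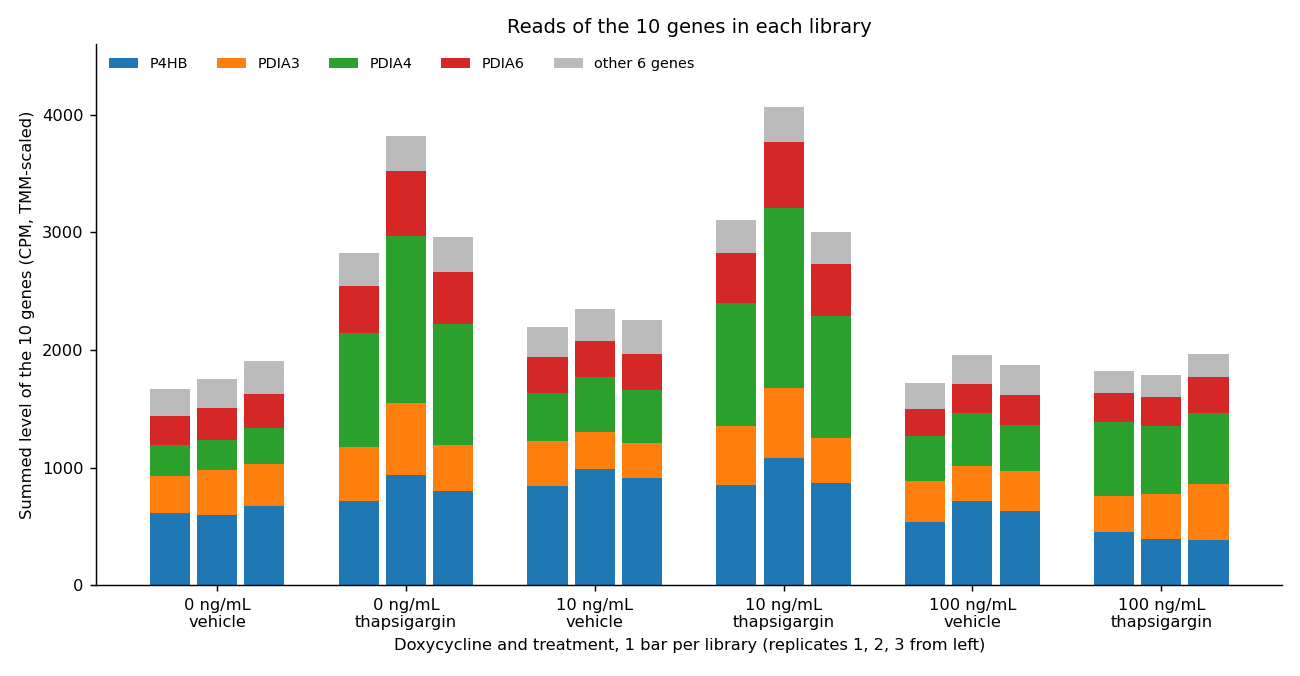
Summed level of the 10 genes in CPM (vertical axis, from 0) in each of the 18 libraries (bars, grouped by dose and treatment), split by gene. Bars reach 2826 CPM or more in all thapsigargin libraries at 0 and 10 ng/mL and stay at or below 1966 CPM in all 6 libraries at 100 ng/mL, where PDIA4 takes up a larger part with thapsigargin.

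Other enzymes of the same pathway were counted in lists. Of 14 further proteins with a PDI fold, 10 were expressed well enough to be tested. None of these passed with thapsigargin at any dose, nor at 10 ng/mL doxycycline, by edgeR with all libraries. PDIA2 passed as lower with thapsigargin at 100 ng/mL, at -0.87, when replicate 1 of High ERN2, stress was left out. In vehicle-treated cells given 100 ng/mL 5 of these 10 fell, against 7.49% of all genes, and 0 rose, against 0.838%, with a list median of -0.49. They were TXNDC12 (log2 fold change -2.08), TXNDC16 (-1.53), TMX4 (-1.23), TMX3 (-0.98) and ERP29 (-0.59). With thapsigargin 3 of them fell at that dose, against 9% of all genes, TXNDC12 (-1.87), TMX4 (-1.50) and ERP29 (-0.75). These values were -1.70, -1.40 and -0.75 without that library, and all 3 passed. TXNDC12, a small thioredoxin-fold protein of the ER, went from 85.8 to 108 CPM in uninduced vehicle-treated libraries to 21.1 to 26.4 CPM at 100 ng/mL, and fell by 1.25 between 10 and 100 ng/mL.

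Of 14 enzymes of oxidant supply and ER thiol chemistry, 13 had a row under their symbol and 12 were tested. PRDX4, the ER peroxiredoxin that uses peroxide to oxidize isomerases, fell by 2.24 at 100 ng/mL with vehicle (adjusted p = 2.19e-07) and had a log2 fold change of -2.48 with thapsigargin (adjusted p = 3.86e-06). Its levels were 135 to 150 CPM in uninduced vehicle-treated cells, 67.6 to 93.8 CPM at 10 ng/mL and 27.5 to 34.9 CPM at 100 ng/mL. SUMF1, the formylglycine-generating enzyme, and its paralog SUMF2 also fell at 100 ng/mL, SUMF2 by 1.81 with vehicle and 2.00 with thapsigargin and SUMF1 by 1.08 and 1.73. CRELD2 of the same list fell by 1.03 at 100 ng/mL with thapsigargin. The counts at that dose were 3 of 12 lower with vehicle, against 7.49% of all genes, and 4 of 12 with thapsigargin, against 9%. When replicate 1 of High ERN2, stress was left out, those 4 still passed, PRDX4 at -2.35, SUMF2 at -2.13, SUMF1 at -1.86 and CRELD2 at -1.18, as did CRELD1 at -0.69 and, as higher, GPX8 at 0.71. From 10 to 100 ng/mL with vehicle 3 of 12 fell, against 2.43% of all genes, PRDX4 (-1.46), SUMF2 (-1.22) and SUMF1 (-0.99). With thapsigargin in uninduced cells 3 of the 12 rose, against 6.45% of all genes, CRELD2 by 1.96, CRELD1 by 1.81 and the ER oxidase ERO1B (listed as ERO1LB) by 0.98, and 1 fell, against 4.74%, PRDX4 by 0.56. At 10 ng/mL thapsigargin raised CRELD1 (1.88) and CRELD2 (1.68), against 1.16% of all genes, and at 100 ng/mL CRELD1 alone, by 1.57, against 0.18%. In the fit without that library, CRELD1 had 1.43 there, and CRELD2 (0.75), ERO1LB (0.72) and GPX8 (0.89) passed as higher and SUMF1 (-1.29) and PRDX4 (-0.73) as lower. Among the partners of P4HB, P4HA2, a catalytic α subunit of prolyl 4-hydroxylase, fell by 1.12 at 100 ng/mL with thapsigargin and had -1.20 without replicate 1 of High ERN2, stress, and with all libraries no other partner passed in any comparison. Without that library P4HA2 also passed with thapsigargin at 100 ng/mL (-0.96) and in the interaction (-0.86), as did CRELD2 in the interaction (-1.16).

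Likeness of expression was described as Pearson's r of log2 CPM over the 18 libraries, across 11454 genes with a mean of at least 5 CPM. These libraries share treatments, so the values carry no test. The genes nearest to PDIA4 were KCTD15 (0.97), PRKCZ (0.97) and HSPA5 (0.97). The nearest to TXNDC11 was XBP1 (0.96), to P4HB TMED9 (0.97), to PDIA6 SLC35B1 (0.96) and to PDIA3 ERO1LB (0.95). QSOX2 was nearest to CLN6 (0.96), PDIA5 to SRPR (0.91), TXNDC5 to SRM (0.87) and TMX1 to PSME3 (0.85). Within the set, PDIA4 and TXNDC11 were most alike (0.94), followed by P4HB and QSOX2 (0.88), and PDIA4 and TMX1 were least alike (-0.53).

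In GENCODE release 29 on GRCh38, PDIA4 lies on chromosome 7 from 149003062 to 149028641 and TXNDC11 on chromosome 16 from 11679080 to 11742878. QSOX1 lies on chromosome 1 from 180154834 to 180204030, QSOX2 on chromosome 9 from 136206333 to 136245841 and P4HB on chromosome 17 from 81843159 to 81860694. PDIA6 lies on chromosome 2 from 10783391 to 10837977 and PDIA5 on chromosome 3 from 123067062 to 123225227. PDIA3 lies on chromosome 15 from 43746392 to 43773279, TMX1 on chromosome 14 from 51240162 to 51257546 and TXNDC5 on chromosome 6 from 7881517 to 7910814. PDIA4, TXNDC11, QSOX2, P4HB, PDIA6 and TXNDC5 are on the minus strand and the others on the plus strand. Whether reads were counted by strand is not given in the sources used here. If they were not, reads of the opposite-strand neighbors ELL3 (69 to 160 reads per library) and PDIA3, ATP6V1C2 (12 to 39) and PDIA6, or SNN (160 to 624) and TXNDC11 could be mixed where their exons overlap, over 627, 1033 and 80 bases. SEC22A shares 490 exonic bases with PDIA5 on the same strand, whatever the strand setting, and had 205 to 391 reads per library against 118 to 512 for PDIA5, so the level of PDIA5 is uncertain.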

How the data were processed

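RNA-Seq libraries of HEK293doxERN2 cells were made with the KAPA stranded mRNA kit and sequenced as 75-cycle single-end reads on a NextSeq500. The authors processed reads with the VIPER pipeline, and the submitters' processing notes name STAR, DESeq2 and hg38. The deposited values are raw counts per gene, not normalized. Annotation and strand setting are not given in the sources used here. The table has 25435 rows (25433 distinct symbols, 28 of them turned to dates), and 18 libraries in 6 groups of 3 were assigned from the labels. Totals were 14876416 to 24652240 counts.

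Each comparison used edgeR 4.0.16 in R 4.3.3 (quasi-likelihood test, two-sided, TMM, filterByExpr with a minimum count of 10) with only the libraries of the compared groups, and p-values were adjusted by Benjamini-Hochberg across every gene tested (threshold 0.01). Standard errors were derived as |log2 fold change|/√F. Interactions used 12 libraries. Alternatives were DESeq2 1.42.0, RLE size factors, no filter, a fit with all 6 groups, a replicate block, an adjusted p of 0.05, each library left out, and PDIA3P1 or BLOC1S5-TXNDC5 reads added. Exact permutation of 3 against 3 libraries cannot go below p = 0.1 and was not used. The procedure was tested on simulated data. Replicate numbers paired the thapsigargin groups at 0 and 10 ng/mL, where same-numbered libraries deviated together (correlations 0.70, 0.66 and 0.76), as a hint from the data. In the other comparisons at least 1 pair was at or below 0.1, although other pairs also deviated together. For thapsigargin at 10 ng/mL, replicates 1 and 3 had correlations of 0.78 and 0.77. For 100 against 10 ng/mL with vehicle, replicates 1 and 2 had 0.81 and 0.59.

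By rule the text gives all 10 genes in every comparison, those that did not pass by value or by range, and other pathway genes where called. These members and lists were chosen with earlier results of these data known. Positions are from GENCODE release 29 and promoters from RefSeq (GRCh38.p14). Plots were made in Python 3.11.15 (matplotlib 3.10.9). The gene nearest to QSOX1 in expression is not reported here.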

Additional observations from a re-analysis of the deposited data

Results flagged for a closer look

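The response of 5 genes to thapsigargin differed between 100 and 0 ng/mL doxycycline, by the test of the difference or by the order of the libraries. PDIA4 (log2 difference -1.40; adjusted p = 0.00897) and HSPA5 (-1.58; adjusted p = 0.00897) passed the edgeR interaction test. For P4HB (-0.89; adjusted p = 0.0313) and PDIA5 (-1.10; adjusted p = 0.0481), every thapsigargin library was above every vehicle library at 0 ng/mL and below every vehicle library at 100 ng/mL, but the interaction missed the threshold. For TXNDC11 (-1.04; adjusted p = 0.0101), which also missed it, every library at 100 ng/mL was above every uninduced library with vehicle and below every uninduced library with thapsigargin. Over all 14768 genes, 0.792% showed the order seen for P4HB and PDIA5 and 1.01% that seen for TXNDC11. PDIA4 and PDIA5 also showed the order seen for TXNDC11. Without replicate 1 of High ERN2, stress, all 5 passed, and the count over all genes rose from 6 to 1286.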

How the results depend on the processing

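Counts of the 10 genes called moved with the settings, and so did the counts over all genes. With DESeq2 they were 2 at 10 ng/mL with vehicle (0 in the report), 2 for 100 against 10 ng/mL (1), 3 for thapsigargin at 100 ng/mL (0) and 5 for the interaction at 100 ng/mL (1). Without the filter they were 2, 2 and 3 for the first, second and last of these. With all 6 groups in the fit they were 2 for 100 against 10 ng/mL, 3 for thapsigargin at 100 ng/mL and 2 for the interaction, and with RLE size factors 2 for the interaction. DESeq2, no filter and all 6 groups each gave 7 for 100 ng/mL with thapsigargin (5), with 2318, 2236 and 2641 genes in all. Each also gave 3 for thapsigargin at 10 ng/mL (2), with 1051, 529 and 676 in all. Without the filter 5 passed for thapsigargin at 0 ng/mL (4), with 2173 in all. With all 6 groups 2 passed for 100 ng/mL with vehicle (3), with 1105 in all. At an adjusted p of 0.05 they were 2 at 10 ng/mL with vehicle, 2 for 100 against 10 ng/mL, 7, 3 and 2 for thapsigargin at 0, 10 and 100 ng/mL, 8 for 100 ng/mL with thapsigargin and 4 for the interaction. For thapsigargin at 0, 10 and 100 ng/mL that threshold called 3260, 1009 and 494 genes in all, against 1611, 212 and 29 at 0.01. For 100 ng/mL with thapsigargin it called 3018 in all, against 1512. At 10 ng/mL with vehicle the counts over all genes were 28 in the report, 382 with DESeq2, 623 without the filter and 110 at 0.05. For 100 against 10 ng/mL they were 356, 791, 638 and 836, and 628 with all 6 groups. For the interaction at 100 ng/mL they were 6, 340, 86 and 149, with 35 for all 6 groups and 14 for RLE. Thapsigargin at 100 ng/mL gave 729 with DESeq2 and 941 with all 6 groups. The cause was not tested.

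With the replicate block the counts were 1 for each dose, 10 and 100 ng/mL, in vehicle-treated cells, 3 for 100 against 10 ng/mL, 7 and 5 for thapsigargin at 0 and 10 ng/mL and 0 for the interaction at 100 ng/mL. It left 0 for thapsigargin at 100 ng/mL, 0 and 5 for 10 and 100 ng/mL with thapsigargin and 0 for the interaction at 10 ng/mL. Over all genes the block called 124 and 750 for 10 and 100 ng/mL with vehicle, against 28 and 1203 without it. For 100 against 10 ng/mL it called 1224 against 356. For thapsigargin at 0, 10 and 100 ng/mL it called 3571, 3620 and 4, against 1611, 212 and 29. With thapsigargin, 10 and 100 ng/mL gave 564 and 1390, against 0 and 1512. The interactions at 10 and 100 ng/mL gave 1 and 3, against 0 and 6.

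Leaving out 1 library gave in vehicle-treated cells 0 to 3 genes for 10 ng/mL and 1 to 3 for 100 ng/mL, 0 to 2 for 100 against 10 ng/mL, 3 to 5, 0 to 4 and 0 to 4 for thapsigargin at 0, 10 and 100 ng/mL, 0 and 2 to 6 for 10 and 100 ng/mL with thapsigargin, and 0 and 0 to 5 for the interactions at 10 and 100 ng/mL. Over all genes these fits called in vehicle-treated cells 0 to 2743 for 10 ng/mL, 915 to 1397 for 100 ng/mL and 0 to 496 for 100 against 10 ng/mL. For thapsigargin at 0, 10 and 100 ng/mL they called 731 to 1901, 28 to 494 and 4 to 2568. With thapsigargin, 10 and 100 ng/mL gave 0 and 763 to 3950, and the interactions 0 and 2 to 1286. With 1 library left out, 2 libraries of a group remain.

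Of 100 log2 fold changes of the 10 genes, 49 had a 95% interval that excluded 0, and none of those changed sign under any alternative run. All 45 changes of sign fell among the 51 whose interval included 0. Read counts were lowest for TXNDC5, at 11 to 137 per library.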
